A study of Mus musculus with 3 samples.

Results

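The 7 genes described here are the chemokines that position cells in the thymus and the receptors that read them. They are the ligands Ccl25, Cxcl12, Ccl21a and Ccl19 and the receptors Ccr9, Cxcr4 and Ccr7. They were picked by symbol from the 32285 gene features of a single-cell RNA library of cultured mouse thymus. The library mixed 2 pools of cells from wild-type mice that received no treatment, and the thymi came from C57BL/6J mice. The ORFTOC pool (organoid reaggregate fetal thymic organ culture) held reaggregates of thymic epithelial cells (TECs) grown beforehand as organoids from E16.5 thymi, EpCAM-depleted cells of E13.5 thymi and mouse embryonic fibroblasts. The paper gives no strain for these fibroblasts. The FTOC pool (fetal thymic organ culture) held intact E13.5 lobes. Both were kept in the medium of the reaggregates, with fibroblast growth factor 7, and were taken at culture day 13. The reaggregates also received thiazovivin for the first 2 days, and the paper does not state whether the lobes did.

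Each pool combined 2 cultures before antibody hashtags were added, and both pools ran in 1 droplet lane, so each condition is 1 sample and no test between the pools was possible. Intervals below are 95% intervals for counting error alone and say nothing of the spread between cultures. The added fibroblasts and the embryos of the organoid epithelium also separate the pools, and these differences cannot be told apart from the culture format. The summed level of 4 Y-linked genes was 84.4 CPM (UMIs, unique molecular identifiers that count captured RNA molecules, per 1000000 UMIs of all genes) in ORFTOCs and 1.00 in FTOCs, so the mix of sexes differed as well.

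Chemokines are small secreted proteins that direct migrating cells through G protein-coupled receptors. In the thymus, CCL25 (read by CCR9) and CXCL12 (read by CXCR4) come largely from the cortical stroma, attract incoming progenitors and hold immature thymocytes in the cortex. CCL19 and CCL21 share the receptor CCR7, which positively selected thymocytes use to enter the medulla.

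After filtering, 8392 cells with 71863106 UMIs remained, 4266 from ORFTOCs (median 8005.5 UMIs a cell) and 4126 from FTOCs (median 4909.5). They fell into 2175 epithelial, 266 mesenchymal and 5951 immune cells and, within these, into 30 clusters (9 epithelial, 2 mesenchymal and 19 immune). The members were left out when cells were clustered and clusters were named, so that no cluster rests on a member. The fixed lists of other genes described further below were also left out of the clustering. Other related genes stayed in, and the chemokines Ccl6 and Ccl9 were among the leading genes of the macrophage-like cluster. A cluster was called "-like" from marker genes only. Cortical TEC-like (cTEC-like) cells, led by Tbata, Psmb11 and Prss16, numbered 326 (286 from ORFTOCs and 40 from FTOCs). Early medullary TEC-like (early mTEC-like) cells, led by Rgs5, Krt14 and Krtdap, numbered 542 (296 and 246). Aire mTEC-like cells numbered 93 (33 and 60). Epithelial cluster 4 (316 cells), led by Lypd1, Ms4a10 and Aebp1, and cluster 5 (309 cells, 264 of them from FTOCs), led by Igfbp2, Ndrg1 and Ndufa4l2, stayed unnamed. Cells mostly from 1 pool may mark that pool and not a type.

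The position of each ligand gene and the bases before its start give the context for its values. In the GRCm38.p6 assembly (mm10, the build of the count files), Ccl25 lies at chr8:4325205-4360020, Cxcl12 at chr6:117168535-117181368, Ccl21a at chr4:42772860-42773991 and Ccl19 at chr4:42754525-42756365. Ccl19 and Ccl21a are separated by 16494 bases. The receptor genes lie at chr9:123767211-123783457 (Ccr9), chr1:128588199-128592299 (Cxcr4) and chr11:99144199-99155077 (Ccr7). RefSeq promoter sequences of the same build matched 6 of the 7 members, all but Ccr7, and listed 2 starts for Ccl25. The 250 bases before each start of the ligands are shown because the ligands moved in opposite directions between the pools. Capitals mark every match, on either strand, to 3 short motifs, and no 2 matches overlapped. They are GACGC, the core read by the TEC master regulator FOXN1, an NF-kB type motif of 3 G, any 5 bases and 2 C, and TATAAA, the TATA box.

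Ccl25, first start, chr8:4324960-4325209, plus strand: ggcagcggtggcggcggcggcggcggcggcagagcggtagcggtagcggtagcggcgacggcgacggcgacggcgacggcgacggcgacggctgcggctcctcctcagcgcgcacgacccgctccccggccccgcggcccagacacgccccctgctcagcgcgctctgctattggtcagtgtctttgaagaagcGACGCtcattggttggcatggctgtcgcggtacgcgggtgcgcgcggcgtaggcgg
Ccl25, second start, chr8:4349338-4349587, plus strand: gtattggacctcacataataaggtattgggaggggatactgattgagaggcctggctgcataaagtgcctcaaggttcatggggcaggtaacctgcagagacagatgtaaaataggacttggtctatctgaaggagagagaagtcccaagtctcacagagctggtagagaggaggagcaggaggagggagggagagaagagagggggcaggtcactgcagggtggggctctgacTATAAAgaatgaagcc
Cxcl12, chr6:117168285-117168534, plus strand: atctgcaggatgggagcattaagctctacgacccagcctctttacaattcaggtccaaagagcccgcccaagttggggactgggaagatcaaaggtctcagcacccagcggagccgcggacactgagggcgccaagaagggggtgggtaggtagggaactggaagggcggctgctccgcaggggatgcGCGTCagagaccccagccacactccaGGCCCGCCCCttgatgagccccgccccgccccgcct
Ccl21a, chr4:42773992-42774241, minus strand: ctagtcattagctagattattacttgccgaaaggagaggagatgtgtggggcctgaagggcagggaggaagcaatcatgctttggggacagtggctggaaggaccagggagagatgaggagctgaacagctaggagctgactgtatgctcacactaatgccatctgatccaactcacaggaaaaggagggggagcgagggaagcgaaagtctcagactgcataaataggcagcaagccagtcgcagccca
Ccl19, chr4:42756366-42756615, minus strand: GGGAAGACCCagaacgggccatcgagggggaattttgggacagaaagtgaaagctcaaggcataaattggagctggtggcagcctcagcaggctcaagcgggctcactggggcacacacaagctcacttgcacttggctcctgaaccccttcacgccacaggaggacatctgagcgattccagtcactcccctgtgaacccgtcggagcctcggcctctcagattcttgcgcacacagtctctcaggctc

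GACGC occurred 1 time before the first Ccl25 start and 1 time before Cxcl12, and is held by 22.6% of all 32851 promoters of this length. The NF-kB type motif occurred 1 time each before Cxcl12 and Ccl19, against 45.8% of promoters. TATAAA occurred 1 time, before the second Ccl25 start, against 12.4%. None of the 3 was found before Ccl21a. The first Ccl25 window was 74.8% G or C and the second 51.6%. These are matches of letters and not shown binding sites.

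Ccl25, which draws progenitors and immature thymocytes through CCR9, was the most restricted ligand. The cTEC-like cluster held 84.6% of its 12943 UMIs, at 2158 CPM (2118 to 2199). The Aire mTEC-like cluster came next, at 511 (480 to 544). In the early mTEC-like cluster Ccl25 was at 13.1, in airway-like epithelium at 11.3, in epithelial cluster 4 at 13.6 and in cluster 5 at 21.1. The last values lie at or below the 31.7 CPM measured in double-positive (DP) thymocyte-like cells, which are not a known source. With each cell thinned to 1000 UMIs, 47.2% of cTEC-like cells (41.7 to 52.8) held a Ccl25 UMI, against 2.95% of DP thymocyte-like cells, whose median depth was 1626 UMIs against 14659.5 in the cTEC-like cluster. Without thinning, 73.0% of cTEC-like cells held one. Free RNA in barcodes of 1 to 100 UMIs carried Ccl25 at 216 CPM.

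Across the epithelium, Ccl25 was at 626 CPM in ORFTOCs and 126 in FTOCs, a log2 ratio of 2.32 (2.24 to 2.40). That ratio joined a level and a number of cells. With every cluster given the same weight in both pools, the levels were 427 and 205 and the log2 ratio was 1.06. Within the cTEC-like cluster Ccl25 was at 2326 in ORFTOCs (2282 to 2371) and 870 in FTOCs (796 to 949), a log2 ratio of 1.42 (1.29 to 1.55). In this cluster 143 of 286 ORFTOC cells and 27.5% of FTOC cells held a Ccl25 UMI after thinning. Only 40 FTOC cells stand behind the second value.

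The Aire mTEC-like cluster ran the other way. Ccl25 was at 209 CPM in ORFTOCs and 653 in FTOCs, a log2 ratio of -1.64 (-1.92 to -1.37). These UMIs sat in few cells. Of 93 cells, 28 held any, the 10 highest held 93.4%, and 1 FTOC cell held 305 of the 979. Without that cell the FTOC level was 423 and the log2 ratio was -1.02 (-1.31 to -0.74). After thinning, 12.1% of ORFTOC cells and 13.3% of FTOC cells in the cluster held Ccl25, so the share of cells did not separate the pools at this depth.

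**Figure D1:**
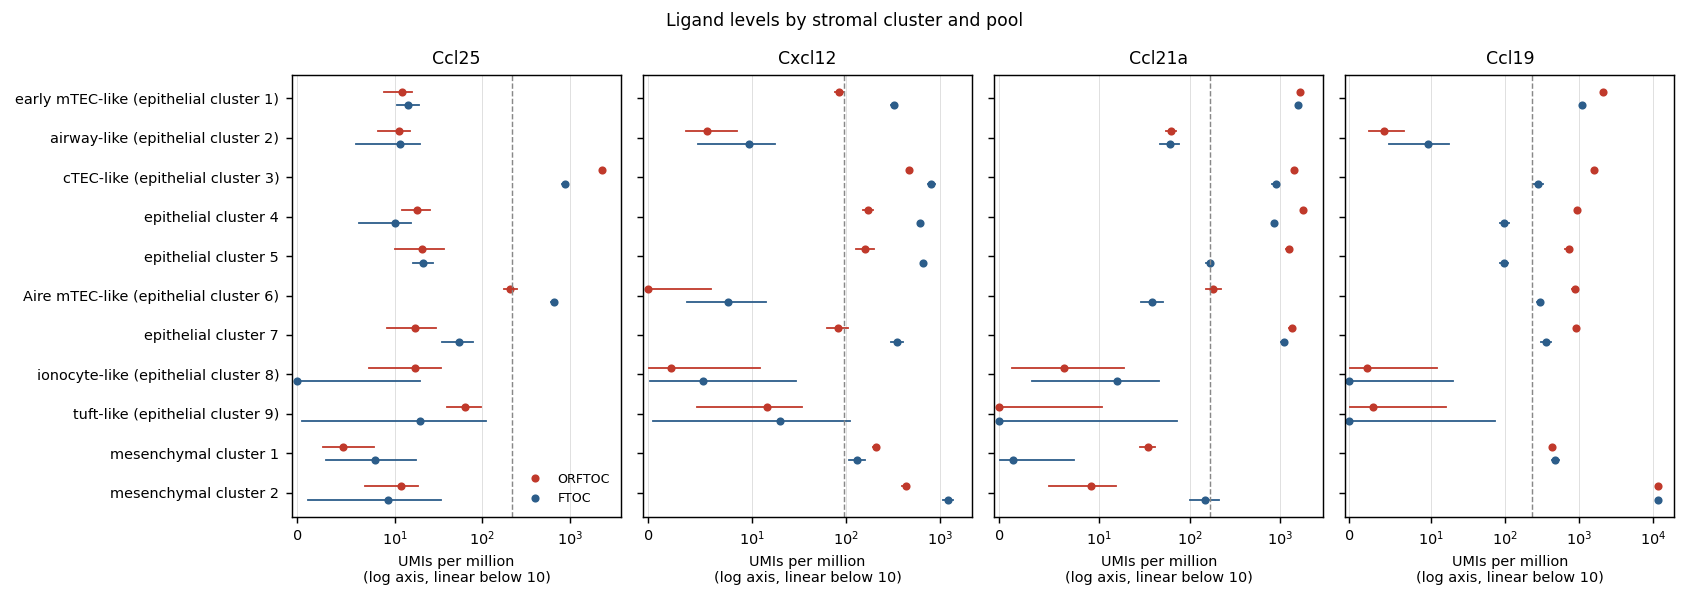
Levels of the 4 ligands in 9 epithelial and 2 mesenchymal clusters, as CPM on an axis that is logarithmic above 10 and linear below, for ORFTOCs (red) and FTOCs (blue). Points are summed counts of all cells of a cluster and pool, bars are exact 95% Poisson intervals, and the dashed line is the level in barcodes without cells. Ccl25 stands out in the cTEC-like cluster (2326 and 870), and Ccl19 in mesenchymal cluster 2 (11919 and 11826).

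Cxcl12, the ligand of CXCR4, was spread over cortical epithelium, unnamed epithelium and mesenchyme. In ORFTOCs it was at 476 CPM (456 to 496) in the cTEC-like cluster and 433 (401 to 468) in mesenchymal cluster 2, which did not differ beyond their counting intervals, and at 161 (129 to 198) in epithelial cluster 5. In FTOCs it was at 1235 (1091 to 1393) in mesenchymal cluster 2, 816 (744 to 892) in the cTEC-like cluster and 659 (630 to 689) in epithelial cluster 5. Over both pools, cluster 5 had 581, but 264 of its 309 cells came from FTOCs, so that the order of pooled levels held in neither pool. Over both pools it was near the level of immune cells (3.15) in Aire mTEC-like (5.22) and airway-like cells (6.53). Of the 116 Cxcl12 UMIs in immune cells, 22 from ORFTOCs and 24 from FTOCs lay in immune cluster 15, which was led by Pth and Chga and stayed unnamed. Cells with a UMI made up 39.0% of the cTEC-like cluster, 33.0% of cluster 5 and 0.58% of immune cells after thinning. Of all Cxcl12 UMIs, epithelial cells held 81.5% and mesenchymal cells 17.3%.

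Cxcl12 was lower in the ORFTOC epithelium, at 172 CPM against 410 in FTOCs, a log2 ratio of -1.25 (-1.32 to -1.18). The difference ran through the clusters. In early mTEC-like cells it was at 85.0 and 324, a log2 ratio of -1.93 (-2.11 to -1.76). In epithelial cluster 4 it was at 172 and 616, and the log2 ratio was -1.84 (-2.03 to -1.65). In cluster 5 it was at 161 and 659, with a log2 ratio of -2.04 (-2.36 to -1.72). The cTEC-like cluster showed the smallest of these 4 differences, 476 against 816, a log2 ratio of -0.78 (-0.92 to -0.63). Of 7 epithelial clusters with at least 10 Cxcl12 UMIs over both pools, 6 were lower in ORFTOCs beyond counting error. Among these, the Aire mTEC-like cluster, held 0 UMIs in ORFTOCs and 10 in FTOCs, and without the FTOC cell that held 6 of them its interval reached above 0. In the seventh, the airway-like cells, the interval of the log2 ratio held 0 (-1.87 to 0.41). That interval rested on 1 ORFTOC cell with 10 of the 23 UMIs, and without it the log2 ratio was -1.59 (-2.86 to -0.29). With clusters weighted alike, the log2 ratio was -1.41.

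In mesenchymal cells the 2 clusters disagreed. Mesenchymal cluster 1, led by Spp1, Igfbp6 and Mfap5, had Cxcl12 at 210 CPM in ORFTOCs and 132 in FTOCs, a log2 ratio of 0.67 (0.36 to 0.99). Mesenchymal cluster 2 had it at 433 and 1235, a log2 ratio of -1.51 (-1.72 to -1.30). Only 14 FTOC cells lie in cluster 2 and 1 of them held 82 of their 266 UMIs. Without it the FTOC level was 986 and the log2 ratio was -1.19 (-1.42 to -0.94). Over all mesenchymal cells the levels were 283 and 379, a log2 ratio of -0.42, and without that cell the ratio was -0.09 with an interval that held 0 (-0.28 to 0.10). The pools also differed in epithelial RNA here. In mesenchymal cluster 2 the epithelial markers summed to 17.0 CPM in ORFTOC and 571 in FTOC cells. In mesenchymal cluster 1 they summed to 227 and 56.1. The part of this RNA in the Cxcl12 values was not tested.

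Ccl21a, the CCR7 ligand that marks medullary epithelium, was almost wholly epithelial, with 98.6% of its 27725 UMIs in epithelial cells. Over both pools it was at 1622 CPM (1594 to 1651) in early mTEC-like, 1351 (1319 to 1383) in cTEC-like and 1275 (1239 to 1311) in cluster 4 cells. Cluster 5 had 335, Aire mTEC-like cells 84.6 and airway-like cells 61.8. This order did not hold in ORFTOCs. There cluster 4 was at 1817, above early mTEC-like (1666) and cTEC-like cells (1411), and cluster 5 was at 1243. The 25 tuft-like cells held no UMI among their 398456 UMIs of all genes. A count of 3 UMIs there would be 7.53 CPM, so a low level is not excluded. Mesenchymal cells were at 27.5 and immune cells at 6.35. Of the 234 Ccl21a UMIs in immune cells, 123 lay in immune cluster 15, led by Pth and Chga. After thinning, 62.4% of early mTEC-like and 52.8% of cTEC-like cells held a UMI, against 0.98% of immune cells. The symbol covers 2 rows of the count table, for near-identical copies, and rows for Ccl21b and Ccl21c held no UMI, so how reads were split between copies is uncertain.

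Ccl21a was close between the pools in early mTEC-like cells, at 1666 CPM in ORFTOCs and 1568 in FTOCs, a log2 ratio of 0.09 (0.04 to 0.14). In airway-like cells the interval of the log2 ratio held 0 (-0.33 to 0.47). The other 5 of 7 epithelial clusters with at least 10 UMIs were higher in ORFTOCs. In the cTEC-like cluster the levels were 1411 and 891, a log2 ratio of 0.66 (0.54 to 0.80). In cluster 4 they were 1817 and 857, and the log2 ratio was 1.09 (1.00 to 1.17). Cluster 5 had the largest ratio of these 7, with 1243 and 166 and a log2 ratio of 2.91 (2.73 to 3.08). There 51.1% of 45 ORFTOC cells but 7.20% of 264 FTOC cells held a Ccl21a UMI after thinning. Over the whole epithelium Ccl21a was at 1075 and 726, a log2 ratio of 0.57 (0.53 to 0.60).

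Ccl19, the other CCR7 ligand, had its highest level outside the epithelium. Mesenchymal cluster 2, with 109 cells, held 44.3% of its 46992 UMIs, at 11908 CPM (11746 to 12071). All 109 cells held a Ccl19 UMI, with a median of 97 and a highest value of 1116 a cell. The level was 11919 in ORFTOCs and 11826 in FTOCs, a log2 ratio of 0.01 (-0.05 to 0.07), so the pools did not differ beyond counting error even though 95 of the cells came from ORFTOCs. The cluster was led by Clu, Csf2rb, Shisa3, Dsc2, Mfge8 and Madcam1. Its fibroblast markers summed to 10921 CPM, its pericyte markers to 608 and its endothelial markers to 8.59, with Cdh5 and Tie1 at 0. In mesenchymal cluster 1 the fibroblast markers summed to 23416 and the pericyte markers to 286. Mesenchymal cluster 2 scored highest for pericyte markers but matched no marker list well enough to be named.

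Within the epithelium Ccl19 was at 1659 CPM (1630 to 1688) in early mTEC-like cells, 1431 (1398 to 1464) in cTEC-like and 482 (451 to 514) in Aire mTEC-like cells. It was at 459 in cluster 4 and 196 in cluster 5. In airway-like cells it was at 5.38, close to the 7.38 of immune cells. Of the 272 Ccl19 UMIs in immune cells, 106 lay in immune cluster 15, led by Pth and Chga. Mesenchymal cluster 1 had 441, at 432 in ORFTOCs and 481 in FTOCs, with a log2 ratio whose interval held 0 (-0.32 to 0.02), and without the ORFTOC cell that held 283 of its UMIs the log2 ratio was -0.48 (-0.66 to -0.31). Thinned shares of cells with a UMI were 85.3% in mesenchymal cluster 2, 40.0% in early mTEC-like, 36.2% in cTEC-like and 1.11% in immune cells. Epithelial Ccl19 was unevenly spread, since the highest 10% of early mTEC-like cells (55 of 542) held 66.0% of that cluster's UMIs.

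Epithelial Ccl19 was higher in ORFTOCs, at 1121 CPM against 406, a log2 ratio of 1.46 (1.42 to 1.51). In early mTEC-like cells it was at 2117 and 1092, and the log2 ratio was 0.96 (0.90 to 1.01). In cTEC-like cells it was at 1581 and 278, with a log2 ratio of 2.51 (2.28 to 2.74). In Aire mTEC-like cells the levels were 873 and 298 and the log2 ratio was 1.55 (1.36 to 1.74). Cluster 4 had 927 and 97.9, a log2 ratio of 3.24 (3.04 to 3.46), of which 1 ORFTOC cell held 520 of the 1759 UMIs. Without that cell the log2 ratio in cluster 4 was 2.67 (2.46 to 2.89). In 6 of 7 epithelial clusters with at least 10 UMIs Ccl19 was higher in ORFTOCs beyond counting error, and in the seventh, the airway-like cells, the interval held 0 (-2.39 to 0.03).

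**Figure D2:**
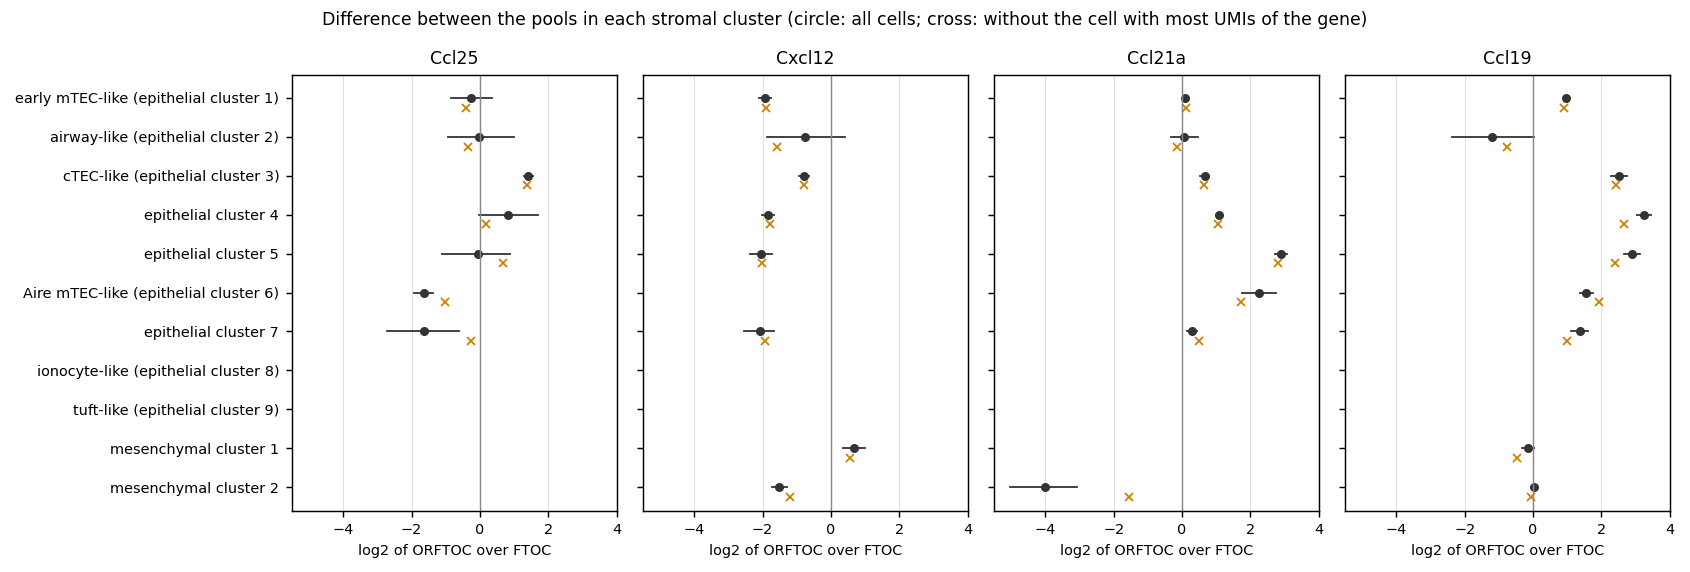
Difference between the pools for each ligand in each stromal cluster with at least 10 UMIs in both pools, as the log2 ratio of ORFTOC over FTOC. Circles are all cells, bars are exact 95% intervals for counting error, and crosses leave out the cell with the most UMIs of the gene. Cxcl12 lies left of 0 in the 6 epithelial clusters drawn, with an interval that holds 0 in airway-like cells, and Ccl19 lies right of 0 in 6 of 7, whereas Ccl25 lies right of 0 in cTEC-like cells (1.42) and left in Aire mTEC-like cells (-1.64).

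A marker check bears on these values. Epithelial cluster 7, with 81 cells led by Ms4a4b, Cd3d and Cd8b1, carried 5 of 5 immune markers at a summed 1611 CPM, against 173 in all epithelial cells. It held Ccl21a at 1255, Ccl19 at 701 and Ccr9 at 116 CPM, so it joined epithelial and T-cell RNA. The epithelial ratios without this cluster were 2.35 for Ccl25, -1.23 for Cxcl12, 0.58 for Ccl21a and 1.47 for Ccl19, a comparison added after the data were seen.

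Set against all genes, some of the ligands passed 2-fold between the pools. Among the 9527 genes with at least 10 CPM in either pool of the epithelium, 5.89% differed at least 2-fold, and of the 5 members tested there 3 did so (Ccl25, Ccl19 and Cxcl12), while Ccl21a and Ccr9 did not. In cTEC-like cells 2 of 4 members passed 2-fold (Ccl25 and Ccl19) against 9.89% of genes. In early mTEC-like cells 1 of 4 did (Cxcl12) against 4.01%. In mesenchymal cells 0 of 4 did, against 7.13%. These are sizes of differences between 2 samples and not tests. The members were chosen with earlier results of these data known, so these shares are only a description.

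The ligands were also compared cell by cell, after thinning to 1000 UMIs. In the cTEC-like cluster 154 of 326 cells held Ccl25 and 127 held Cxcl12, and 75 held both. Of cells with Ccl25, 48.7% also held Cxcl12 (40.6 to 56.9), against 30.2% of those without (23.5 to 37.7), and in ORFTOC cells alone the shares were 47.6% and 26.6%. The CCR7 ligands had lower shares in cells with Ccl25, with intervals that overlapped. Ccl21a was found in 46.1% of cells with Ccl25 (38.1 to 54.3) and 58.7% of those without (50.98 to 66.16), and Ccl19 in 29.9% (22.8 to 37.8) and 41.9% (34.4 to 49.6). Ccl21a and Ccl19 shared cells, since 44.8% of cTEC-like cells with Ccl21a held Ccl19, against 26.6% of those without. In early mTEC-like cells the shares were 46.7% (41.3 to 52.2) and 28.9% (22.8 to 35.7). In mesenchymal cluster 2, 33 of the 37 cells with Cxcl12 held Ccl19 (89.2%), against 83.3% of those without, with overlapping intervals (74.6 to 97.0 and 72.7 to 91.1). Cells of unequal quality, free RNA and cells from 2 pools all enter these shares, and their part was not tested.

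Among 5918 genes compared over the 30 clusters, by Pearson correlation of log2 levels with 10 CPM added, those most like Ccl25 were Slc22a7 (r = 0.93), Aldh3b2 (0.88) and Crip3 (0.86). Those most like Cxcl12 were Snai2 (0.95), Sulf1 (0.94) and Pthlh (0.94). Ccl21a was closest to Trp63 (0.96), Shisa2 (0.95) and Cdh3 (0.95), and Ccl19 to Lpar1 (0.95), Slco2a1 (0.93) and Myh11 (0.93). Clusters of 1 library share its depth and free RNA, and these values are a description.

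Ccr9, the receptor of CCL25, marked the DP and newly selected stages. Cluster names came from other genes. The selected thymocyte-like cluster, led by Cd5 and Cd6, had Ccr9 at 1246 CPM (1138 to 1361) and DP thymocyte-like cells at 890.5 (861 to 921), within which 5 clusters ran from 706 to 1455. Levels were lower in gamma-delta T cell-like (441), cycling thymocyte-like (186) and mature single-positive (SP) thymocyte-like cells (184, 170 to 198). The cycling and the mature SP values did not differ beyond their counting intervals. NK or ILC1-like cells had 128 and group 3 innate lymphoid (ILC3-like) cells 22.5. Epithelial cells had 9.39, while free RNA carried Ccr9 at 208 CPM. After thinning, 55.2% of DP, 66.8% of selected, 15.1% of mature SP thymocyte-like and 1.06% of epithelial cells held a UMI, with median depths of 1626, 1941, 6067 and 12711 UMIs.

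Cxcr4, the receptor of CXCL12, was also higher in DP and selected than in mature SP thymocyte-like cells. It was at 71.3 CPM (63.2 to 80.2) in DP, 55.6 (34.8 to 84.2) in selected and 42.05 (38.16 to 46.23) in cycling thymocyte-like cells, and at 5.86 (3.67 to 8.87) in mature SP thymocyte-like cells. Unlike Ccr9 over both pools, Cxcr4 in cycling cells thus lay above mature SP cells beyond the intervals. DP and selected cells did not differ beyond their intervals. Macrophage-like cells had 85.8 (76.2 to 96.3), and ILC3-like cells had 50.5. After thinning, 6.92% of DP, 0.74% of mature SP and 0.09% of epithelial cells held a UMI. Mesenchymal cluster 2 held 54 Cxcr4 UMIs, 30.9 CPM, against 1.80 in cluster 1. Free RNA carried it at 22.0.

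Ccr7, the receptor of CCL19 and CCL21, changed in the opposite direction. It was at 502 CPM (480 to 526) in mature SP thymocyte-like cells and at 30.2 (25.0 to 36.1) in DP and 27.8 (13.9 to 49.7) in selected thymocyte-like cells, close to the 29.2 of free RNA. The highest level was in the 29 dendritic cell-like cells, 2716 (2518 to 2926), all of which held a UMI and which were led by Fscn1, a gene of migratory dendritic cells. Immune cluster 6, led by Ly6c2, Jchain and Plac8, had 190, and ILC3-like cells had 129. Among 3 cycling thymocyte-like clusters, Ccr7 was at 197 in immune cluster 12 and at 6.77 and 3.75 in clusters 7 and 10. After thinning, 38.4% of mature SP, 2.95% of DP and 0.41% of epithelial cells held a UMI.

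**Figure D3:**
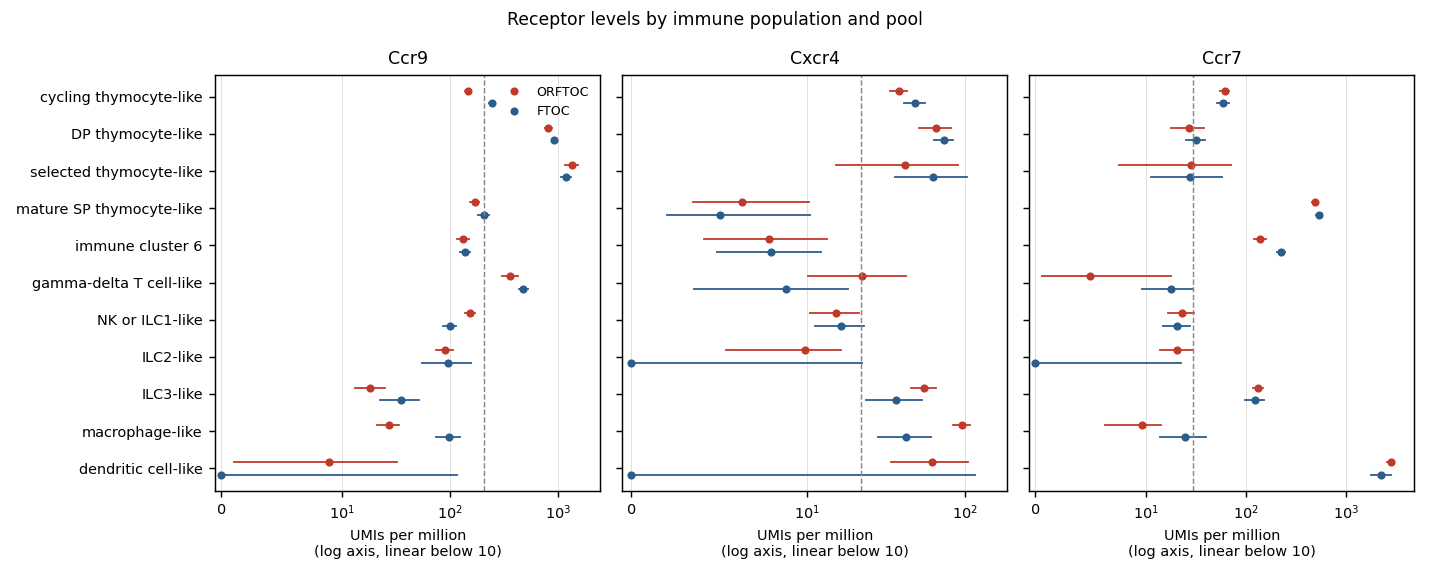
Levels of the 3 receptors in immune populations, as CPM on an axis that is logarithmic above 10 and linear below, for ORFTOCs (red) and FTOCs (blue). Points are summed counts, bars are exact 95% Poisson intervals, and the dashed line is the level in barcodes without cells. Ccr9 and Cxcr4 are high in DP and low in mature SP thymocyte-like cells (890.5 to 184 and 71.3 to 5.86 over both pools), whereas Ccr7 is high in mature SP and dendritic cell-like cells.

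The 3 receptors differed between DP and mature SP thymocyte-like cells in both pools. The mature SP class rests on a clustering with cell cycle scores regressed out, and without that step no cluster was named mature SP. The log2 ratio of mature SP over DP was -2.28 (-2.40 to -2.16) for Ccr9, with -2.27 in ORFTOCs and -2.15 in FTOCs. It was -3.60 (-4.30 to -2.98) for Cxcr4, with -3.38 and -3.86. It was 4.06 (3.79 to 4.34) for Ccr7, with 4.19 and 4.08. These classes differed widely, with 38.9% of 8485 genes past 2-fold and a median log2 ratio of -0.63 over all of them, so every value carries a shift toward lower in mature SP. With median-of-ratios scaling, which removed a shift of -0.59, the ratios were -1.69, -3.02 and 4.65. Of the 5 members tested, 1 was at least 2-fold higher in mature SP (Ccr7) and 3 were lower (Ccr9, Cxcr4 and Ccl19). For Ccl19, as for Ccl25 (log2 ratio of -0.96), thymocytes are not the source and the counts were 14 and 52 UMIs.

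Between DP and selected thymocyte-like cells Ccr9 was higher in the selected cells, with a log2 ratio of 0.48 (0.35 to 0.62), of 0.72 in ORFTOCs and of 0.37 in FTOCs. Cxcr4 (-0.36, -1.06 to 0.27) and Ccr7 (-0.12, -1.16 to 0.77) did not differ beyond counting error at this depth. From selected to mature SP cells the log2 ratio was -2.76 for Ccr9, -3.25 for Cxcr4 and 4.18 for Ccr7.

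In DP and mature SP thymocyte-like cells the pools were close for the receptor values given here. Ccr9 in DP thymocyte-like cells was at 819 CPM in ORFTOCs and 919.6 in FTOCs, a log2 ratio of -0.17 (-0.28 to -0.06). Cxcr4 there was at 65.6 and 73.6, and the interval of its log2 ratio held 0 (-0.57 to 0.22). Ccr7 in mature SP thymocyte-like cells was at 485 and 533, a log2 ratio of -0.14 that reached almost to 0 (-0.27 to -0.00). Of 8358 genes in DP cells 1.87% passed 2-fold between pools, and 0 of 5 members did. In mature SP cells 2.73% of genes did, and 0 of 3 members.

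Over all immune cells Ccr9 was lower in ORFTOCs, at 163 against 330 CPM, a log2 ratio of -1.02 (-1.08 to -0.96), the 1 member of 4 to pass 2-fold there (4.98% of genes did). DP thymocyte-like cells made up 21.9% of ORFTOC and 49.7% of FTOC immune cells. With immune clusters weighted alike in both pools, Ccr9 was at 214 and 261, a log2 ratio of -0.28. The pools did differ within some stages. In cycling thymocyte-like cells Ccr9 was at 148 in ORFTOCs and 247 in FTOCs, a log2 ratio of -0.74 (-0.87 to -0.60), and in the cycling cluster led by Gzma, Tubb3 and Ccnb2 it was at 223 and 483. NK or ILC1-like cells were higher in ORFTOCs, at 155 against 99.8, a log2 ratio of 0.63 (0.38 to 0.89). In macrophage-like cells Cxcr4 was at 96.4 and 42.6, a log2 ratio of 1.18 (0.61 to 1.79). Immune cluster 6 had Ccr7 at 139 and 223, a log2 ratio of -0.69 (-0.91 to -0.46).

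Productive T-cell receptor (TCR) chains, sequenced from RNA of the same cells, gave a stage axis that uses no count of the gene expression library. A chain can be missed where little RNA was captured. No chain was found in 276 DP and 48 mature SP thymocyte-like cells, so the groups are only a rough axis. TRB, the beta chain, is rearranged before TRA, the alpha chain. Of the immune cells, 2145 had no productive chain, 2047 had TRB alone and 1731 had both, with median depths of 5460, 2275 and 3431 UMIs. Ccr9 was at 129 CPM in cells without chains, 349 with TRB alone and 274 with both. Cxcr4 was at 35.4, 48.4 and 25.2 in the same order. Ccr7 was at 101, 45.9 and 253. Of these 3 groups, cells with TRB alone thus had the lowest Ccr7 and the highest Ccr9 and Cxcr4, although in ORFTOCs Cxcr4 in cells with TRB alone (45.7) and without chains (43.8) did not differ beyond counting error. Cells with no chain include innate lymphoid, dendritic and myeloid cells.

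Within DP thymocyte-like cells the chains made little difference to Ccr9, at 863 with TRB alone and 923 with both, a log2 ratio whose interval held 0 (-0.01 to 0.20). Ccr7 was higher in DP cells with both chains than with TRB alone, at 43.5 against 20.1 CPM, a log2 ratio of 1.11 (0.51 to 1.72). The direction was shared, at 50.997 against 9.724 in ORFTOCs (19 and 6 UMIs) and at 40.4 against 24.3 in FTOCs (37 UMIs each). DP cells without chains had Ccr7 at 37.7, and the interval of both chains over none held 0 (-0.60 to 1.08). The counts are few and the levels near that of free RNA. In cycling thymocyte-like cells Ccr7 was at 10.2 with TRB alone and 167 with both chains, and this held in ORFTOCs (8.15 and 178) and in FTOCs (13.8 and 150). Cycling cells without chains lay between, at 59.9, so Ccr7 did not rise steadily along the chains. Immune cluster 12 held 571 of the 613 Ccr7 UMIs of cycling cells. The mix of cycling clusters thus enters this split, and its part was not tested. Ccr9 in cycling cells ran the other way, at 210 with TRB alone and 150 with both. In mature SP cells Ccr7 was at 521 with both chains and 439 with TRB alone, and the interval of the log2 ratio held 0 (-0.00 to 0.50).

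**Figure D4:**
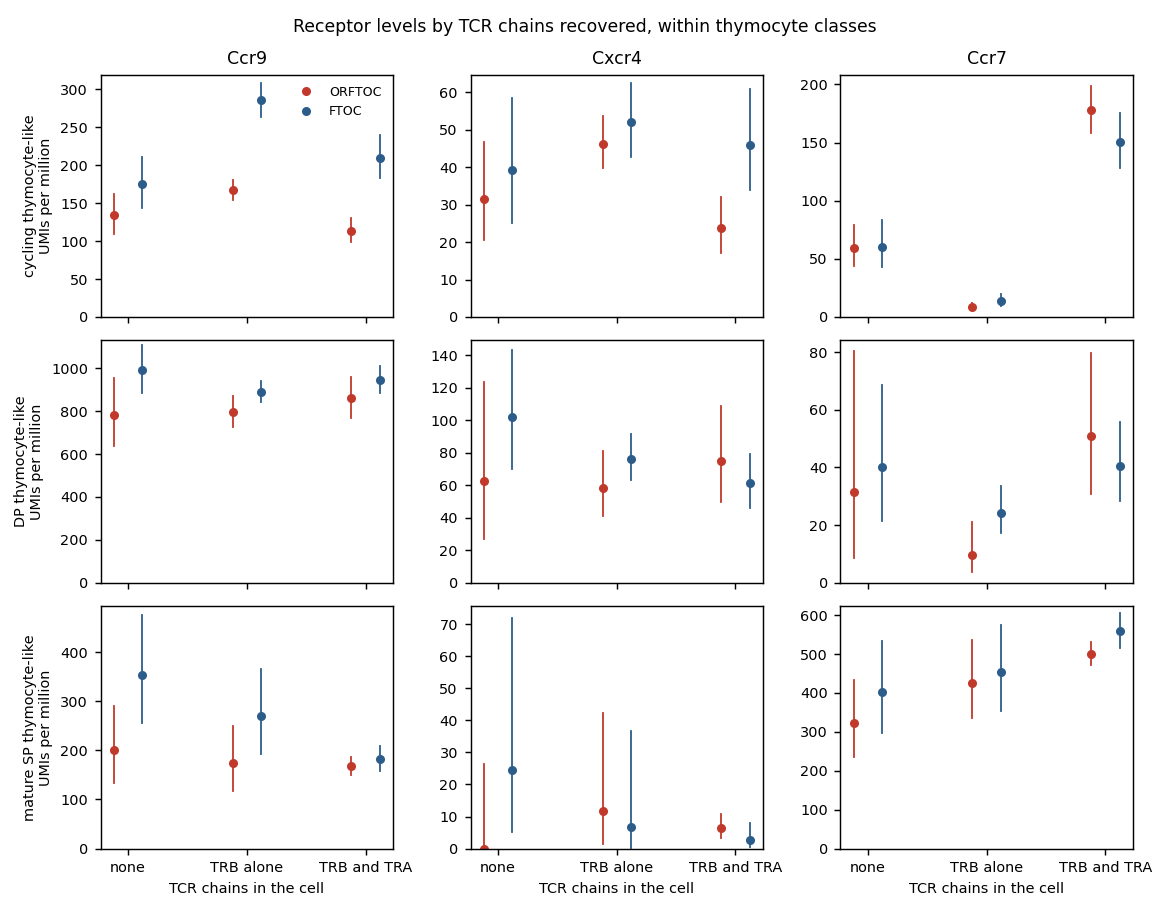
Levels of the 3 receptors, as CPM, in cycling, DP and mature SP thymocyte-like cells split by the productive TCR chains found in each cell, for ORFTOCs (red) and FTOCs (blue). Points are summed counts and bars exact 95% Poisson intervals. In cycling cells Ccr7 is at 59.4 (ORFTOC) and 60.5 (FTOC) without chains, 8.15 and 13.8 with TRB alone, and 178 and 150 with both chains.

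With cells thinned to 1000 UMIs, receptors were seldom seen together in a cell, and this depth limits what can be seen. Without thinning, 83.2% of mature SP thymocyte-like cells held Ccr7. In mature SP thymocyte-like cells thinned to 1000 UMIs, 208 of 542 held Ccr7 and 82 held Ccr9, and 30 held both. Of cells with Ccr9, 36.6% held Ccr7 (26.2 to 48.0), against 38.7% of those without, so Ccr9 and Ccr7 showed no exclusion at this depth. In DP cells 7.55% of those with Ccr9 held Cxcr4, against 6.16% of those without, with overlapping intervals. Over the 30 clusters, the genes most like Ccr9 were Carmil2 (r = 0.97), Cd27 (0.97) and Trbc1 (0.96), those most like Cxcr4 were Ppp1r12c (0.87), Bnip2 (0.86) and Gnai3 (0.86), and those most like Ccr7 were Myo1g (0.80), Rel (0.79) and Mob3a (0.79).

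The other genes of the system were taken from 6 fixed lists of 67 genes, also chosen with earlier results of these data known. In the epithelium 12 of 22 other chemokines were measured at 10 CPM or more, and 5 were at least 2-fold higher in ORFTOCs and 0 lower (5.89% of all genes passed in either direction), with a median log2 ratio of 0.64 against 0.01 for all genes. Ccl11, the eosinophil attractant eotaxin, was at 271 against 16.0 CPM, a log2 ratio of 4.09 (3.88 to 4.30). Cxcl5, a neutrophil attractant, was at 135 and 24.2, with a log2 ratio of 2.49 (2.31 to 2.67). Ccl11 was also higher in early mTEC-like cells, at 708 against 43.6, where Ccl5 was lower, at 48.4 against 147. Of the scavenging receptors that remove homing chemokines, Ackr4, which takes up CCL19, CCL21 and CCL25, was the 1 of 3 measured in the epithelium and was lower in ORFTOCs (10.1 against 32.9). It is named after its values were seen, since it lies under the 100 CPM set for naming a list gene.

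In mesenchymal cells 13 other chemokines were measured, 1 at least 2-fold higher in ORFTOCs and 4 lower (7.13% of all genes passed), with a median of -0.35 against -0.10 for all genes. Cxcl10, an interferon-induced attractant of T cells, was at 238 and 670, and Cxcl13, which attracts B cells, at 171 and 564. Among sphingosine 1-phosphate and egress genes in cTEC-like cells, 2 of 4 were higher in ORFTOCs and 0 lower (9.89% of all genes passed), with a median of 1.00 against -0.02 for all genes, and Sphk1, a kinase that makes sphingosine 1-phosphate, was at 100.3 and 18.8. In immune cells 6 of 13 other chemokines and 4 of 10 other chemokine receptors were higher in ORFTOCs and 0 lower (4.98% of all genes passed), with medians of 0.53 and 0.61 against -0.06. Of the signalling genes, 1 of 9 was higher and 0 lower, with a median of -0.15, and it was Rgs2, a brake on G protein signals, at 204 against 101. These immune values are sums over cell mixes that differed. ILC3-like cells made up 16.1% of ORFTOC and 3.91% of FTOC immune cells. Within DP cells 0 of 1 other receptors and 1 of 2 other chemokines passed (1.87% of all genes). Within mature SP cells 0 of 3 and 0 of 2 did (2.73%). The part of the cell mix was not tested.

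Between DP and mature SP thymocyte-like cells 38.9% of all genes passed 2-fold, 650 higher and 2650 lower in mature SP. Of 4 measured egress genes, of 7 listed, 2 were at least 2-fold higher and 0 lower, with a median of 1.35 against -0.63 for all genes. S1pr1, the receptor by which mature thymocytes leave, was at 208 CPM in mature SP and 9.71 in DP cells, a log2 ratio of 4.42 (3.95 to 4.93). Klf2, the transcription factor that drives S1pr1, was at 867 and 116. Of 10 adhesion genes 2 were higher and 4 lower, with a median of 0.02. Itgb7, an integrin chain of gut homing, was at 346 and 106. Itgb1 was at 29.6 and 118, and Itgal at 74.6 and 163. Among signalling genes 1 of 9 was higher and 1 lower, fewer than the share of all genes, with a median of -0.14, the latter Gnai3, a G protein subunit, at 54.6 and 131.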

How the data were processed

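A mouse thymus library (10x 5' chemistry) with hashtag and TCR libraries was used, and the authors deposited unnormalised UMI counts per gene and barcode and productive TCR contigs. The submitters' processing notes name mm10, Cell Ranger 6.1.2 and Seurat 4.2.0. Here, barcodes with at least 600 genes (10910) and 0.4 to 10% mitochondrial UMIs (10245) were assigned to pools by hashtag, which gave 8983 singlets, 590 hashtag doublets and 672 negatives, and the 591 singlets with most hashtag doublets among their nearest neighbours were also taken out as likely doublets of 1 pool, leaving 8392 cells. Expression was normalised by sctransform 0.4.2, which also regressed out S and G2M phase scores, and cells were clustered with Seurat 5.3.0 (R 4.3.3) on 18 principal components, with epithelial and mesenchymal cells at resolution 0.4 and immune cells at 1, without the 7 members and the 67 list genes. The limits of the rule that names clusters were set after leading genes had been seen. Members and lists were chosen with earlier results of these data known. Counts were summed per population and pool and scaled to 1000000 UMIs (CPM), with exact Poisson, conditional binomial and Clopper-Pearson intervals at 95% (scipy 1.17.1), which cover counting error only. A count under 3 was set to 3 in a ratio. A gene differed where it was at least 2-fold apart with at least 10 CPM in the higher group, and list genes were named from 100 CPM, at most 6 per population. Shares used cells thinned to 1000 UMIs, which left out 117 immune cells (42 ORFTOC and 75 FTOC). Cell depth is given in the report. Scripts were tested on simulated data. The alternatives tried were other hashtag, doublet, gene, clustering, weighting, scaling and free RNA rules, and, chosen after seeing the data, leaving out the highest cell or epithelial cluster 7. The values of 1 list gene are not reported here.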

Additional observations from a re-analysis of the deposited data

Results flagged for a closer look

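Some members differed between the pools in opposite directions in different clusters, beyond counting error in each, and with 1 sample per pool none of these differences between clusters was tested. Ccl25 was higher in ORFTOCs in cTEC-like cells, with a log2 ratio of 1.42, and lower in Aire mTEC-like cells, at -1.64, or -1.02 without the FTOC cell that held the most. Cxcl12 was higher in mesenchymal cluster 1, at 0.67, and lower in epithelial cluster 7, which T-cell genes led, at -2.09. Ccl21a had a log2 ratio of 2.91 in epithelial cluster 5 and -4.02 in mesenchymal cluster 2, where 27 of 32 FTOC UMIs sat in 1 cell and the ratio without it was -1.55 (-3.11 to 0.27). In mesenchymal cluster 2 epithelial markers summed to 571 CPM in FTOC cells and to 17.0 in ORFTOC cells. Ccr9 was higher in NK or ILC1-like cells, at 0.63, and lower in macrophage-like cells, at -1.84, where it rested on 137 UMIs. Free RNA carried Ccr9 at 208 CPM. Cxcr4 was higher in macrophage-like cells, at 1.18, and lower in the cycling thymocyte-like cells of immune cluster 12, at -0.80, where the interval without the highest cell held 0 (-1.42 to 0.16). Ccr7 was higher in immune cluster 15, which Pth and Chga led, at 1.79, and lower in macrophage-like cells, at -1.33, where 1 ORFTOC cell held 18 of 26 UMIs and the ratio without it was -3.02. Both macrophage-like Ccr7 levels, 9.67 CPM in ORFTOCs and 24.4 in FTOCs, lay below the 29.2 CPM of free RNA.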

How the results depend on the processing

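No log2 ratio changed sign under any alternative, with 108 of 148 values inside the interval of the reported value and 40 outside, and the cause of those that moved was not tested unless named. Assigning hashtags by a ratio rule gave 1.89 for Ccl25, -0.93 for Cxcl12, 0.17 for Ccl21a and 1.19 for Ccl19 in epithelial cells, -1.17 for Cxcl12 in mesenchymal cells, -0.33 for Ccr7 in mature SP cells and -2.52 for Ccr9 in mature SP over DP cells. Keeping doublets gave, for the same results, 1.99 (Ccl25), 0.52 (Ccl21a), 1.39 (Ccl19), -0.68 (Cxcl12, mesenchymal), -0.33 (Ccr7) and -2.50 (Ccr9). Requiring 1000 genes gave 2.14 (Ccl25), -0.22 (Cxcl12, mesenchymal), -0.30 (Ccr7) and -2.52 (Ccr9). Ccr7 in mature SP cells was -0.31 with log-normalised counts, -0.37 with 30 principal components and -0.32 with the members kept in the clustering, and Ccr9 in mature SP over DP was -2.45, -2.50 and -2.63, and -2.45 at resolutions 0.8 and 2. Log-normalised counts gave 4.50 for Ccr7 in mature SP over DP. Subtracting free RNA gave 2.54 for Ccl25. Giving every cell the same weight gave -1.35 for Cxcl12, 0.62 for Ccl21a, 1.67 for Ccl19 and -2.11 for Ccr9 in mature SP over DP. Leaving out cells with a marker UMI of another compartment gave 2.61 for Ccl25 and 1.53 for Ccl19. Median-of-ratios scaling, which by construction removes a shift of -0.59 between the classes, gave -1.69 for Ccr9 and 4.65 for Ccr7 in mature SP over DP. Weighting clusters alike, which removes differences in their shares, gave 1.06 for Ccl25, -1.41 for Cxcl12 and 1.52 for Ccl19 in epithelial cells and -0.76 for Cxcl12 in mesenchymal cells. Leaving out the highest cell, added after the data were seen, gave -0.094 for Cxcl12 in mesenchymal cells and -1.02 for Ccl25 in Aire mTEC-like cells. With no filter on low values, genes at least 2-fold apart rose from 561 to 2622 in epithelial, 914 to 5939 in cTEC-like, 365 to 1379 in early mTEC-like, 654 to 5383 in mesenchymal, 426 to 2240 in immune, 156 to 4043 in DP and 204 to 751 in mature SP cells, and from 3300 to 4979 between mature SP and DP cells. Weighting gave no value for Ccr7 in mature SP cells, which were 1 cluster, and without cell cycle regression no cluster was named mature SP. No paired analysis was possible because each pool is 1 sample.

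Each pool is 1 sample, so the spread between cultures is unknown. The ligand values rest on small groups, among them 40 FTOC cTEC-like cells, 33 ORFTOC Aire mTEC-like cells and 14 FTOC cells of mesenchymal cluster 2, and the DP values rest on 279 Cxcr4 and 118 Ccr7 UMIs.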
